A study of Mus musculus with 16 samples.

Results

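The data cover 10 cytokine and chemokine genes in mouse lung, taken as every array spot annotated to Il6, Il11, Lif, Osm, Il1b, Tnf, Cxcl1, Cxcl2, Cxcl3 and Cxcl5. They were 10 of 20863 named genes and 29 of 62976 spots. Il1b and Tnf had 10 spots each, Il6 had 2 and the other genes 1. Total RNA of whole lung from C57BL/6 mice aged 9 to 12 weeks was hybridised to single-colour Agilent arrays, 1 array for each of 16 samples. All mice received an oligonucleotide into the trachea 4 and 2 days before and again 4 days after the challenge. It was either the CAV1 target site blocker (CAV1 TSB) at 5 mg/kg, which covers a microRNA site in the Cav1 transcript, or a control blocker (Control TSB) whose dose was not stated. The challenge, also into the trachea, was bleomycin at 1 unit/kg, which injures the lung and is used as a model of fibrosis, or phosphate-buffered saline (PBS). Bleomycin was combined with the CAV1 blocker in 6 arrays and with the control blocker in 6, and PBS was combined with each of them in 2. No group went without an oligonucleotide. The labels give neither the time of lung collection nor whether each sample was a separate animal, and the p-values therefore describe only how far these samples differ, which may be technical.

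Il6, Il11, Lif and Osm encode secreted cytokines that share the receptor subunit gp130, encoded by Il6st, and act largely through the transcription factor Stat3. Il1b and Tnf encode early alarm cytokines, made mainly by myeloid cells, that activate NF-κB. Cxcl1, Cxcl2, Cxcl3 and Cxcl5 encode chemokines that draw neutrophils through the receptor CXCR2. Il6 and the CXC chemokine genes are textbook NF-κB targets, and these cytokines are known to rise in injured lung.

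The upstream sequences of Il6, Cxcl1, Cxcl2 and Cxcl3 are shown because they hold an NF-κB-type motif. Whether the responses of these genes differed from each other was not tested. Each is the 120 bases before the RefSeq start site on mouse build GRCm38.p6, 5′ to 3′ on the plus strand of chromosome 5, with every match, on either strand, to GGG, any 2 bases and TTTCC in capitals.
Il6 (chr5:30012994-30013113): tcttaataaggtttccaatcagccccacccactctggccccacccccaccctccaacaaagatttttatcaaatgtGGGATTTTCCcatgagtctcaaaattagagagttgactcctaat
Cxcl1 (chr5:90891125-90891244): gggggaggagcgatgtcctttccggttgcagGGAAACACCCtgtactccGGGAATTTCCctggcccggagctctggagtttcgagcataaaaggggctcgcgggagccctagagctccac
Cxcl2 (chr5:90903779-90903898): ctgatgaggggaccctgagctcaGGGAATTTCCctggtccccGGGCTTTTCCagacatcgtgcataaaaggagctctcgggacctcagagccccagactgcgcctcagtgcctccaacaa
Cxcl3 (chr5:90785981-90786100): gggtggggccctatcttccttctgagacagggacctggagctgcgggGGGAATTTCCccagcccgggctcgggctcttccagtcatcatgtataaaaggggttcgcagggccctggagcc

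The Il6 match lay 44 to 35 bases before the start site. Cxcl1 held 2 matches, at 89 to 80 (on the minus strand) and 71 to 62 bases before it. Cxcl2 also held 2, at 97 to 88 and 78 to 69 bases, and Cxcl3 held 1, at 73 to 64 bases. No match was found in the 250 bases before the listed starts of Il11, Lif, Il1b or Tnf. Osm and Cxcl5 had no start window available and were not searched. Of all 32841 RefSeq start windows of the same 250 bases, 464 (1.41%) held the motif. A match describes the letters and is not a measured binding site.

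The values are the authors' log2 intensities, compared as deposited with limma across 20304 genes. Calls required p under 0.05 after Benjamini-Hochberg adjustment over that whole set. The brightest spot stands for a gene, ± gives the SD between arrays, and log2 differences carry their SE. The 8 lung markers, among them Sftpc and Scgb1a1, had a mean log2 intensity of 14.08 to 14.66 in all 16 arrays. Skeletal muscle and stratified squamous markers were low in 5 arrays, namely array 3 of bleomycin with the CAV1 blocker, arrays 2 and 6 of bleomycin with the control blocker and the pair that received PBS and the CAV1 blocker. Squamous markers averaged 6.61 to 6.96 there and 10.28 to 11.13 in the other 11 arrays. Comparisons with the PBS CAV1 blocker pair thus also differ in tissue content. So does bleomycin against PBS under the control blocker, where these lists had median differences of -1.89 (skeletal muscle) and -1.01 (squamous). The RNA integrity number was 10 for arrays 1 and 5 of bleomycin with the control blocker and 9 for the rest. All 10 genes passed the filter on dim signal, which asked for a level above an array's own 25th percentile in at least 2 arrays. Cxcl2 passed in 5 arrays only, and Cxcl2 and Cxcl3 lay below the array's median spot in all 16, so a small change in either could be hidden near background. Il6 was above the median spot in 13 arrays. Its levels after PBS, 6.32 to 6.74, lay near the array medians of 6.51 to 6.52. No detection marks were used.

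**Figure D1:**
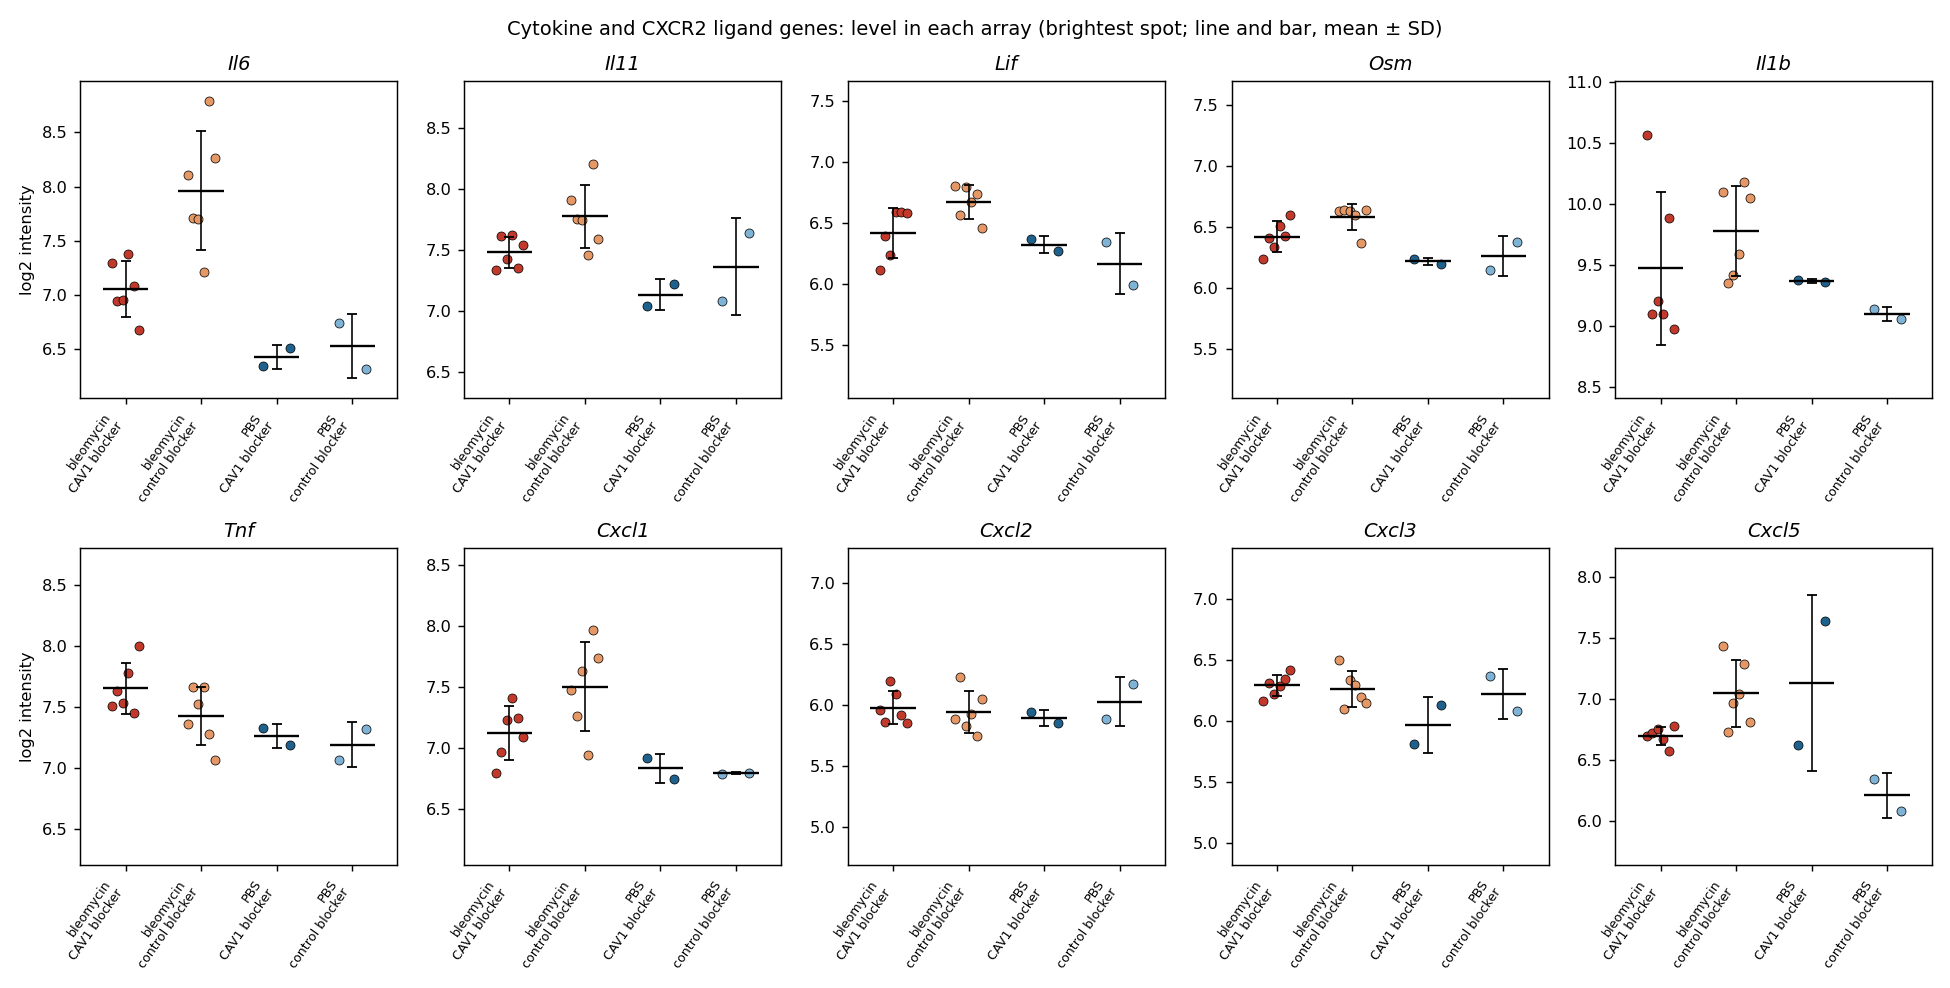
Level of each gene in each array (log2 intensity, brightest spot) by group, with 1 point per array and the mean ± SD; the vertical scale differs between genes. Il6 averaged 7.06 and 7.97 in the bleomycin groups with the CAV1 and control blocker and 6.43 and 6.53 in the PBS groups with the CAV1 and control blocker, and Cxcl2 averaged 5.90 to 6.03 throughout.

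Il6 was the 1 gene of the set called with bleomycin under the control blocker and between the blockers after bleomycin. Its level was lowest at 7.21, with a median of 7.91 and a highest value of 8.79, in bleomycin control blocker lungs, against 6.74 and 6.32 in PBS control blocker lungs. Every bleomycin array of this blocker was above both PBS arrays. Il6 rose by 1.44 on the log2 scale (SE 0.296, 95% confidence interval 0.81 to 2.07, limma adjusted p = 0.0246), a 2.71-fold higher signal. The second Il6 spot gave 1.45. Of all genes tested, 1.96% were called higher in this comparison, and Il6 was the 1 called gene of the 10.

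Under the CAV1 blocker, Il6 stood at 6.68 to 7.38, with a median of 7.02, after bleomycin and at 6.35 and 6.51 after PBS. The groups did not overlap on this spot, but the difference of 0.63 (SE 0.296, limma adjusted p = 0.337) did not pass. On the second spot it was 0.48 and the groups overlapped, with bleomycin array 1 at 6.45 and a PBS array at 6.51. Under the CAV1 blocker 0 of the 10 genes were called by limma, with 2 at an unadjusted p under 0.05, and 0.517% of all genes were called. With the bleomycin effect averaged over the blockers, Il6 rose by 1.03 (SE 0.21, limma adjusted p = 0.00921), where 4.25% of genes were called higher. The call under the control blocker ended without bleomycin control blocker array 1 (adjusted p = 0.0557) or PBS control blocker array 2 (0.237), and the averaged one without PBS CAV1 blocker array 1 (0.0635). The range over the 16 arrays left out was 1.23 to 1.65 under the control blocker and 0.93 to 1.14 averaged.

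After bleomycin, Il6 was lower with the CAV1 blocker than with the control blocker. The mean was 7.06 ± 0.26 with the CAV1 blocker and 7.97 ± 0.55 with the control blocker (SD, n = 6 each). Only bleomycin control blocker array 4, at 7.21, fell within the range of the CAV1 blocker arrays. Il6 fell by 0.91 on the log2 scale (SE 0.21, 95% confidence interval -1.35 to -0.46, limma adjusted p = 0.0407), which is 0.534 times the control blocker signal. Among all genes 0.414% were called lower in this comparison, and again Il6 was the 1 called gene of the 10. The comparison uses the same bleomycin control blocker arrays as the one with PBS, so they are not independent.

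The 2 Il6 spots agreed closely except in 1 array. They stood at 7.30 and 6.45 in bleomycin CAV1 blocker array 1, and their median SD within an array was 0.0596. On the second spot the blocker difference was -1.08 (adjusted p = 0.0101 over all spots), and on the mean of both spots -0.99 (limma adjusted p = 0.0144). Leaving out arrays was tried with the brightest spot only. There the call (limma adjusted p = 0.0407) was close to the threshold and depended on single arrays. It ended in 11 of 16 cases when 1 array was left out, namely bleomycin control blocker array 1, 2, 3, 5 or 6, bleomycin CAV1 blocker array 2, 3, 5 or 6, or either PBS CAV1 blocker array. The difference then ranged from -1.06 to -0.74 and the adjusted p from 0.00843 to 0.102. Bleomycin control blocker arrays 1 and 5, whose RNA integrity number was 10, had Il6 levels of 8.11 and 8.79. Without them the difference was -0.66 (limma adjusted p = 0.186), and bleomycin against PBS under the control blocker came to 1.19 (adjusted p = 0.0778). Without array 3 of bleomycin with the CAV1 blocker and arrays 2 and 6 of bleomycin with the control blocker, which were low in muscle and squamous markers, the blocker difference was -0.88 (adjusted p = 0.257).

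After PBS, Il6 did not differ detectably between the blockers (-0.10, 95% confidence interval -0.87 to 0.67), and 0 of the 10 genes were called by limma, with 1 at an unadjusted p under 0.05, where 0.31% of all genes were called. The interaction, which asks whether the bleomycin effect itself differed between the blockers, was -0.81 for Il6 (SE 0.419, unadjusted p = 0.0734, limma adjusted p = 0.497). On the second Il6 spot it was -0.97 (limma unadjusted p = 0.0348, adjusted p = 0.508 over all spots). The interaction was called for 0 of 20304 genes (0%) by limma, with 9.22% at an unadjusted p under 0.05. A different bleomycin effect under the 2 blockers was therefore not shown for any of the 10 genes.

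**Figure D2:**
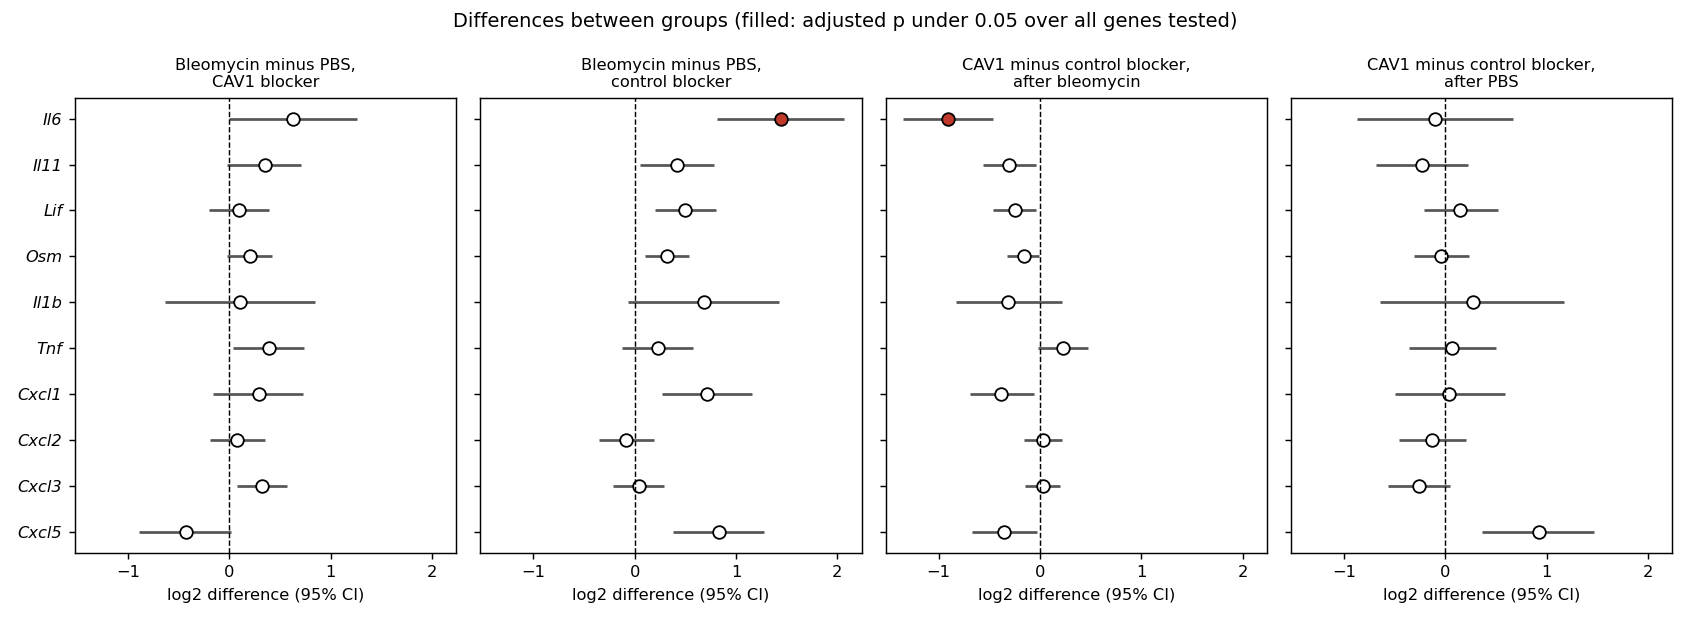
Log2 difference with its 95% confidence interval for each gene in 4 comparisons, with filled points for genes called at an adjusted p under 0.05. Il6 is the only filled point, at 1.44 for bleomycin minus PBS under the control blocker and at -0.91 for the CAV1 blocker minus the control blocker after bleomycin.

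The other gp130 cytokine genes had smaller differences, and in single comparisons none passed. Il11, a cytokine that acts on fibroblasts, stood at 7.46 to 8.20 after bleomycin with the control blocker, against 7.08 and 7.64 after PBS with it. The groups overlapped, and the difference was 0.42 (SE 0.172, limma adjusted p = 0.25). Leaving out PBS control blocker array 1 gave 0.13 (adjusted p = 0.685), and leaving out array 2 of that group gave 0.70 (adjusted p = 0.196). Averaged over the blockers the Il11 difference was 0.38 (adjusted p = 0.086), which passed without PBS control blocker array 2 (0.52, adjusted p = 0.0304). With the CAV1 blocker it was 7.33 to 7.62 after bleomycin, against 7.04 and 7.22 after PBS, with no overlap and a difference of 0.35 (SE 0.172, adjusted p = 0.365). The CAV1 blocker minus the control blocker after bleomycin was -0.30 (SE 0.122, unadjusted p = 0.0271, limma adjusted p = 0.433).

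Lif, which supports stem cells and tissue repair, and Osm, made by myeloid and T cells and active on epithelium and stroma, had low levels near the array median. Lif was 6.46 to 6.80 after bleomycin and 6.34 and 5.99 after PBS with the control blocker, which did not overlap (difference 0.50, SE 0.14, limma adjusted p = 0.0772). It passed without PBS control blocker array 1 (0.68, adjusted p = 0.0189) or bleomycin CAV1 blocker array 1 (0.50, 0.0422). With the CAV1 blocker, Lif was 6.11 to 6.59 after bleomycin and 6.37 and 6.27 after PBS (difference 0.10, adjusted p = 0.799). Osm was 6.37 to 6.64 after bleomycin and 6.15 and 6.38 after PBS with the control blocker (difference 0.32, adjusted p = 0.127). It was 6.24 to 6.60 after bleomycin and 6.24 and 6.20 after PBS with the CAV1 blocker (difference 0.20, adjusted p = 0.386).

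Averaged over the blockers, Osm rose by 0.26 (SE 0.0729, limma adjusted p = 0.0476), so that Il6 and Osm were the 2 called of 10 genes where 4.25% of all genes were called higher. The Osm call was lost in 13 of 16 cases when 1 array was left out, all except bleomycin CAV1 blocker array 1, bleomycin control blocker array 5 and PBS control blocker array 2, with values of 0.20 to 0.32. Between the blockers after bleomycin, Lif differed by -0.25 (SE 0.0987, adjusted p = 0.388) and Osm by -0.16 (SE 0.0729, adjusted p = 0.515).

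Il1b and Tnf, the NF-κB activating pair, did not pass in any of the 6 comparisons. Across its 10 spots Il1b had a median SD of 0.104 within an array, against 0.594 between the bleomycin CAV1 blocker arrays and 0.436 between the bleomycin control blocker arrays. The SD within an array covers differences between spots only, not those of extraction, labelling or hybridisation, and whether the spots hold different probes was not tested. The between-array values are SDs of the mean over the spots. After bleomycin with the CAV1 blocker the lowest level was 8.98, the median 9.16 and the highest 10.57, the last in array 1. With the control blocker these were 9.35, 9.82 and 10.18, and the PBS arrays stood at 9.38 and 9.36 with the CAV1 blocker and 9.14 and 9.06 with the control blocker.

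On the brightest spot every bleomycin control blocker array was above both of its PBS arrays in Il1b, which held for 8 of the 10 spots, with a difference of 0.68 (SE 0.347, limma adjusted p = 0.357) and 0.59 to 0.76 over the 10 spots. Under the CAV1 blocker the groups overlapped (difference 0.11, 95% confidence interval -0.63 to 0.85). Between the blockers after bleomycin the difference was -0.31 (interval -0.83 to 0.22, adjusted p = 0.857).

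Tnf was the 1 of the 6 cytokine genes outside the CXCR2 ligands with a higher mean after bleomycin with the CAV1 blocker than with the control blocker. It was 7.65 ± 0.21 with the CAV1 blocker and 7.42 ± 0.24 with the control blocker (SD, n = 6 each), a difference of 0.23 (SE 0.116, limma adjusted p = 0.64) with overlapping groups. Over its 10 spots this difference was 0.11 to 0.25. Bleomycin minus PBS was 0.39 under the CAV1 blocker (SE 0.164, adjusted p = 0.276), where the groups did not overlap on the brightest spot and on 5 of the 10 spots in all, and 0.23 under the control blocker (adjusted p = 0.521), where they did.

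The CXCR2 ligand genes divided into Cxcl1 and Cxcl5, which had positive but uncalled differences with bleomycin under the control blocker, and Cxcl2 and Cxcl3, which were dim. Cxcl1, a chemokine of epithelium, fibroblasts and macrophages, was 6.94 to 7.97 with a median of 7.55 after bleomycin with the control blocker, against 6.79 and 6.80 after PBS with it. The groups did not overlap, and the difference of 0.71 (SE 0.209, unadjusted p = 0.0039) had a limma adjusted p of 0.0945. It passed without bleomycin control blocker array 4 (0.82, adjusted p = 0.0304). With the CAV1 blocker Cxcl1 was 6.80 to 7.41 after bleomycin, against 6.92 and 6.75 after PBS (difference 0.29, adjusted p = 0.56). The CAV1 blocker minus the control blocker after bleomycin was -0.38 (SE 0.148, adjusted p = 0.387).

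Cxcl5, a chemokine made by alveolar epithelium, was 6.73 to 7.43 after bleomycin with the control blocker, against 6.34 and 6.08 after PBS with it, without overlap. The difference of 0.83 (SE 0.213, limma adjusted p = 0.054) just missed the threshold. It passed without PBS control blocker array 1 (0.96, adjusted p = 0.0311) and without PBS CAV1 blocker array 1 or 2 (0.83, 0.0281 each). The bleomycin CAV1 blocker arrays lay closely together at 6.57 to 6.78, whereas the PBS CAV1 blocker arrays were far apart at 6.62 and 7.64. Bleomycin minus PBS under the CAV1 blocker was -0.43 (SE 0.213, adjusted p = 0.359). It was -0.94 without PBS CAV1 blocker array 1 (adjusted p = 0.142) and 0.08 without PBS CAV1 blocker array 2.

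The blocker difference in Cxcl5 was 0.92 after PBS (SE 0.261, limma adjusted p = 0.22) and -0.35 after bleomycin (SE 0.151, adjusted p = 0.493). Squamous markers averaged 6.61 and 6.71 in the PBS CAV1 blocker arrays, against 10.80 and 10.43 in the PBS control blocker arrays (median difference of the list -4.01), and the skeletal muscle markers had the same median difference. After PBS, tissue content and blocker therefore cannot be told apart, which also bears on the interaction. Bleomycin minus PBS under the CAV1 blocker used the same PBS arrays, with list medians of 3.83 (squamous) and 2.87 (skeletal muscle). For all 10 genes, tissue content and bleomycin can therefore not be fully told apart there, nor in the averaged comparison. With bleomycin under the control blocker the list medians were -1.01 (squamous) and -1.89 (skeletal muscle). None of the 12 genes of either list was higher, so this limit holds there too. The Cxcl5 interaction of -1.27 (SE 0.301) had an unadjusted p of 0.000757, the 10th smallest of 20304, and an adjusted p of 0.497. The blocker difference after PBS passed without PBS control blocker array 1 (1.05, adjusted p = 0.0378) or PBS CAV1 blocker array 1 (1.43, 0.0181), and was 0.41 without PBS CAV1 blocker array 2. The interaction passed without PBS control blocker array 1 (-1.40, adjusted p = 0.0318) or PBS CAV1 blocker array 1 (-1.78, 0.0123), each of which leaves 1 array in a PBS group, and without PBS CAV1 blocker array 2 the value was -0.76.

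Cxcl2 and Cxcl3, which encode close relatives of Cxcl1, had no called difference. Cxcl2 was 5.85 to 6.20 with the CAV1 blocker and 5.75 to 6.23 with the control blocker after bleomycin, and 5.94 and 5.85 with the CAV1 blocker and 5.89 and 6.17 with the control blocker after PBS. All 4 groups overlapped, and the bleomycin effect averaged over the blockers was 0.00 with an interval of -0.19 to 0.19. For Cxcl3 the levels after bleomycin were 6.17 to 6.42 with the CAV1 blocker and 6.10 to 6.50 with the control blocker. Its bleomycin difference was 0.32 under the CAV1 blocker (SE 0.117, limma adjusted p = 0.204) and 0.04 under the control blocker (adjusted p = 0.891). These genes are paralogs, and how far their spots are specific was not tested.

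At an unadjusted p under 0.05, 6 of the 10 (Il6, Il11, Lif, Osm, Cxcl1 and Cxcl5) were higher with bleomycin under the control blocker, where 10.5% of all genes were. Under the CAV1 blocker, 2 of 10 (Tnf and Cxcl3) were higher, where 7.15% were, and 0 were lower, where 7.67% were. Between the blockers after bleomycin, 6 of 10 were lower (Il6, Il11, Lif, Osm, Cxcl1 and Cxcl5), where 4.6% were. After PBS, 1 of 10, Cxcl5, was higher, where 8.26% were. Bleomycin and PBS arrays did not overlap on the brightest spot for 5 of the 10 with the control blocker, all higher after bleomycin, where this held for 8.55% of all genes. With the CAV1 blocker it held for 4 of the 10, where it did for 8.38%. The median difference of the 10 with bleomycin was 0.46 in control blocker lungs and 0.24 in CAV1 blocker lungs, and between the blockers after bleomycin it was -0.28, and the medians of all genes were 0.03, -0.01 and -0.01. The genes share lungs and are not replicates of one another.

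Of 13 receptor genes, 1 rose with bleomycin under the control blocker, Tnfrsf1b, a receptor of Tnf (0.81, SE 0.193, limma adjusted p = 0.0413). Of all genes, 1.96% were called higher there. None of the 13 was called under the CAV1 blocker or between the blockers by limma. At an unadjusted p under 0.05, 2 were higher and 4 lower under the CAV1 blocker, where 7.15% and 7.67% of all genes were, and 4 were lower between the blockers after bleomycin, where 4.6% were. Averaged over the blockers, 2 of 13 rose, where 4.25% of all genes did, namely Tnfrsf1b (0.53) and Ackr1 (0.76), a receptor that binds chemokines without signalling. With 1 array left out, the Tnfrsf1b call was lost in 10 of 16 cases under the control blocker and in 4 averaged. The Ackr1 call was lost in 2, without PBS control blocker array 1 or PBS CAV1 blocker array 1. Of 16 ligand relatives, Ebi3 rose with bleomycin under the control blocker (0.63, adjusted p = 0.0261), where 1.96% of all genes did. Ebi3 encodes a subunit shared by several cytokines of this family. Of 9 inflammasome genes, which govern the release of active Il1b protein, Nlrp1b rose under the control blocker (0.57, adjusted p = 0.0414), and Nlrp1b (0.50) and Pycard (0.45) rose in the averaged comparison. The shares of all genes called higher were 1.96% under the control blocker and 4.25% averaged. The Ebi3 call was lost without bleomycin control blocker array 1 or PBS control blocker array 2, and the Nlrp1b call under the control blocker in 10 of 16 cases. Averaged, the Pycard call was lost without either PBS CAV1 blocker array or PBS control blocker array 2, and the Nlrp1b call in 0 of 16 cases.

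Socs3, the Stat3-induced inhibitor of gp130 signalling, was the 1 of 13 inhibitor genes called with bleomycin under the control blocker, where 1.96% of all genes were called higher. It averaged 12.55 after bleomycin and 11.68 after PBS there, a rise of 0.87 (SE 0.155, limma adjusted p = 0.0184). Averaged over the blockers it rose by 0.72 (adjusted p = 0.00233) and passed whichever array was left out. Under the CAV1 blocker it averaged 12.21 after bleomycin and 11.64 after PBS (0.57, adjusted p = 0.101). The CAV1 blocker minus the control blocker after bleomycin was -0.34 (adjusted p = 0.203), and 0 of 13 inhibitors were called there by limma. At an unadjusted p under 0.05, 4 were lower, where 4.6% of all genes were.

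Of 24 target genes of Stat3 or NF-κB, 5 rose with bleomycin under the control blocker, where 1.96% of all genes did, and none fell. These were Bcl3, an NF-κB cofactor (0.88), Timp1, an inhibitor of matrix proteases (2.02), Nos2, the inducible nitric oxide synthase (1.05), Ptgs2, the inducible cyclooxygenase (1.02), and Saa3, an acute-phase protein (1.82). The list median was 0.26. Averaged over the blockers 9 rose, where 4.25% of all genes did, and Saa3 (1.78), Timp1 (1.59) and Nos2 (0.83) passed whichever array was left out. Lcn2, an antimicrobial protein, rose there by 1.29 and Saa1 by 0.70. With 1 array left out, the Lcn2 call was lost in 1 of 16 cases, Bcl3 in 2, Saa1 and Ptgs2 in 3 each, Lrg1 in 12 and Cebpb in 13, and in each of these without PBS CAV1 blocker array 1. Under the CAV1 blocker 0 of 24 were called by limma, where 0.517% of all genes were. At an unadjusted p under 0.05, 7 were higher and 1 lower, where 7.15% and 7.67% of all genes were. Leaving out PBS control blocker array 2 ended each of the 5 calls under the control blocker, and also that of Socs3. It was the only such array for Bcl3, Timp1, Nos2 and Socs3. The Saa3 call was lost in 5 of 16 cases, without this array, bleomycin control blocker array 1, 3 or 5 or bleomycin CAV1 blocker array 2. The Ptgs2 call was lost in 4, without this array or bleomycin control blocker array 1, 2 or 5.

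After bleomycin, 1 of the 24 target genes fell with the CAV1 blocker relative to the control blocker, where 0.414% of all genes did. Bcl3 averaged 11.83 with the CAV1 blocker and 12.27 with the control blocker (-0.43, SE 0.104, limma adjusted p = 0.0489). The Bcl3 call ended in 11 of 16 cases when 1 array was left out, with values of -0.48 to -0.39 and an adjusted p of up to 0.131.

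The mean of 11 monocyte and macrophage markers was 11.04 to 11.56 after bleomycin with the CAV1 blocker and 11.67 to 11.79 with the control blocker, and these groups did not overlap. It was 11.05 and 11.14 after PBS with the CAV1 blocker and 11.29 and 11.06 with the control blocker. Bleomycin under the control blocker raised 4 of these genes, Ms4a7 (2.22), Fcgr1 (1.03), Adgre1 (0.95) and Cx3cr1 (0.81), and lowered Marco (-0.99). Of all genes, 1.96% were called higher there. Between the blockers after bleomycin, Itgam (-0.94, limma adjusted p = 0.00271) and Ms4a7 (-1.05, adjusted p = 0.0236) fell, where 0.414% of all genes did. Itgam differed by only -0.33 (adjusted p = 0.147) when its spots were averaged. After PBS it also averaged 13.23 with the CAV1 blocker and 14.48 with the control blocker. Unlike the 4 genes raised with bleomycin under the control blocker, Itgam had a negative difference there (-0.47, limma adjusted p = 0.288). The Ms4a7 call ended in 6 of 16 cases when 1 array was left out, bleomycin control blocker array 1, 2, 5 or 6 or bleomycin CAV1 blocker array 2 or 6. Each of the 4 rises ended without PBS control blocker array 2, as did the fall in Marco. Cx3cr1 was lost in 7 of 16 cases, Marco in 3 (also without PBS control blocker array 1 or bleomycin control blocker array 1) and Adgre1 in 2 (also without bleomycin control blocker array 1). In the averaged comparison 5 of the 11 were called higher, where 4.25% of all genes were, and Marco (-0.67) was called lower. Ms4a7 (1.65), C1qa (1.47) and Fcgr1 (0.67) passed there whichever array was left out. The calls of Adgre1 (0.66) and Cd14 (0.53) were lost in 2 cases each and that of Marco in 1. The part of these cells in the Il6 difference was not tested, and in whole lung fewer cells of a type and less RNA per cell cannot be told apart.

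The 14 neutrophil markers, of which Lcn2 and Cxcr2 also stand in the lists above, differed among themselves. With bleomycin under the control blocker 4 of the 14 had a positive difference, Lcn2 (0.91), Mmp8 (0.54), Ltf (0.05) and Cxcr2 (0.05), none of them called. The list median was -0.52, against 0.03 for all genes. At an unadjusted p under 0.05, 2 were higher, where 10.5% of all genes were. At that threshold 6 were lower, for which the share of all genes is not given here. They were Elane (-1.35), Ngp (-1.29), Camp (-1.08), Fpr1 (-0.78), Mpo (-0.68) and Mmp9 (-0.62). The PBS control blocker arrays lay far apart for Elane, Camp and Mpo (SD 2.12, 1.16 and 1). They lay closer for Ngp, Fpr1 and Mmp9 (SD 0.03, 0.24 and 0.34). The mean of the list was 10.57 to 11.26 after bleomycin with the CAV1 blocker and 10.27 to 10.77 with the control blocker, against 10.88 and 10.89 after PBS with the CAV1 blocker and 11.02 and 10.87 with the control blocker. Ngp, a neutrophil granule protein, fell with bleomycin under the control blocker (-1.29, limma adjusted p = 0.0184) and was the 1 marker called there. That call ended without PBS control blocker array 2. Averaged over the blockers, Lcn2 (1.29) was called higher, where 4.25% of all genes were. Ngp (-0.74) and Retnlg (-0.71) were called lower there, and the Retnlg call was lost in 14 of 16 cases when 1 array was left out. Between the blockers after bleomycin 0 of 14 were called by limma, with 4 higher at an unadjusted p under 0.05. The share of all genes higher at that threshold is not given here. The list median was 0.35 in this comparison, against -0.01 for all genes.

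**Figure D3:**
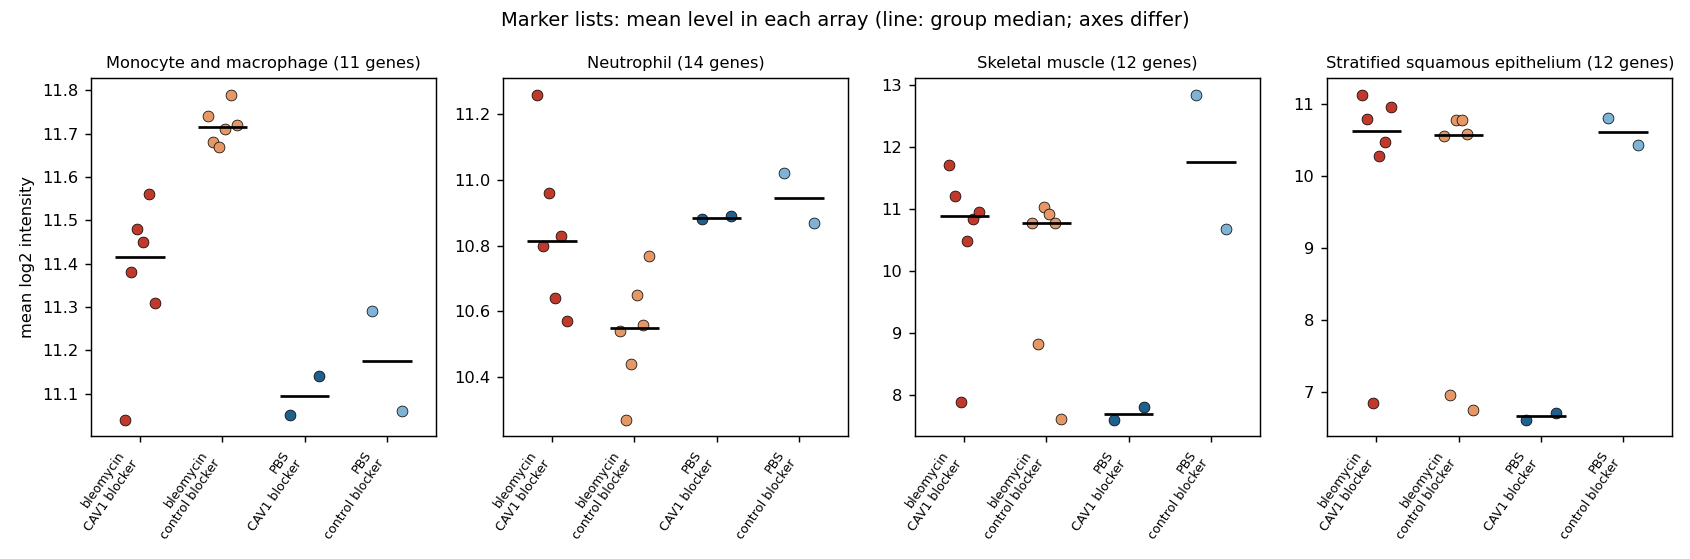
Mean log2 intensity of 4 marker lists in each array by group, with the group median as a line and a separate scale for each list. Monocyte and macrophage markers stand at 11.04 to 11.56 after bleomycin with the CAV1 blocker and 11.67 to 11.79 with the control blocker, and skeletal muscle and squamous markers are low in the same 5 arrays.

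Among the 45 pairs of the 10 genes, Il6 and Cxcl1 were the most alike over the 16 arrays (Pearson r = 0.876, Spearman rho = 0.818). The pair was picked for this value, and the arrays share their groups, so no test is given. Pearson r was 0.114 over the 6 bleomycin CAV1 blocker arrays, where array 1 had discordant Il6 spots, and 0.909 over the 6 bleomycin control blocker arrays. Il6 and Tnf had r = -0.13 and Il6 and Il1b r = 0.63. Outside the set, the 3 tested genes with the highest Pearson r to Il6 over the 16 arrays were Oas1f (0.92), Tnfaip6 (0.919) and Ccl2 (0.918). For Cxcl1 they were Pdyn (0.913), Cck (0.908) and Fst (0.898), and for Il1b Acod1 (0.889), Slit1 (0.866) and 1810037I17Rik (0.831). For Tnf they were Ptger4 (0.874), Septin8 (0.872) and Vangl1 (0.871).

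**Figure D4:**
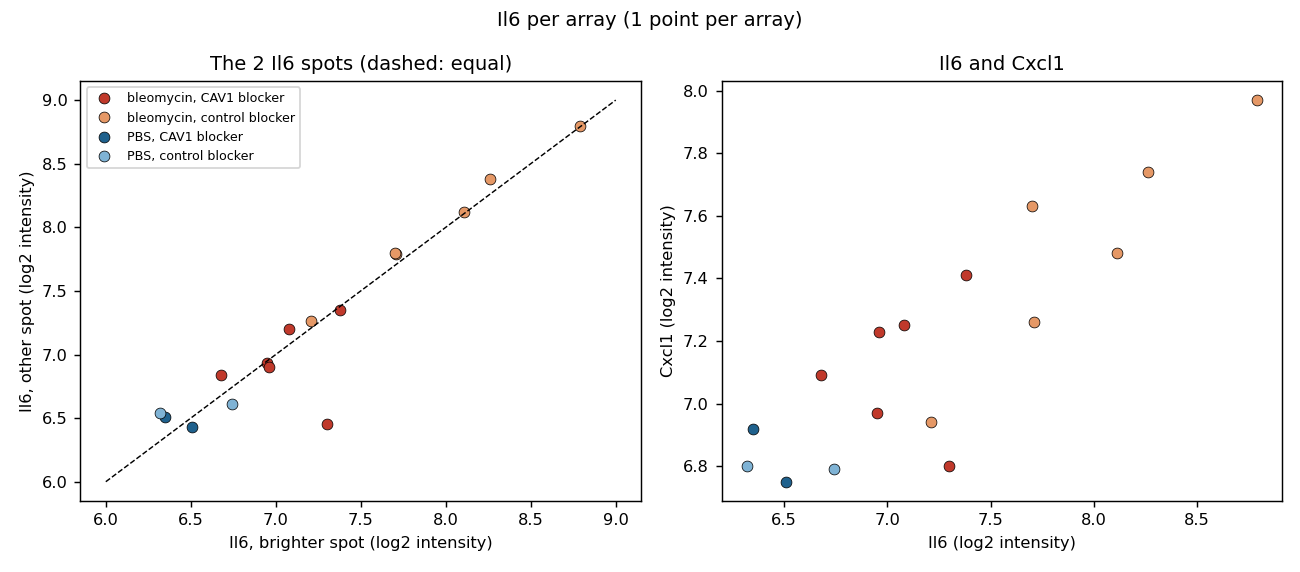
Left, the 2 Il6 spots against each other with a dashed line of equality, and right, Cxcl1 against Il6, both in log2 intensity with 1 point per array coloured by group. The spots lie near the line except in bleomycin CAV1 blocker array 1, at 7.30 and 6.45, and the highest Il6 and Cxcl1 levels, 8.79 and 7.97, are in the same bleomycin control blocker array.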

How the data were processed

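The deposited table holds the authors' log2 intensities of 62976 spots in 16 arrays. Per the submitters' processing notes limma was used, with no version; the background correction is not given in the sources used here. The values share nearly the same distribution in every array and were used as deposited. The number of arrays limits the precision. The platform table named 31465 spots, and RefSeq accessions updated symbols (GRCm38.p6). The brightest spot stood for a gene. Genes above an array's 25th percentile in at least 2 arrays were tested. One mean per group was fitted with limma 3.58.1 on R 4.3.3, with 12 residual degrees of freedom and two-sided tests, and the fit was tested on simulated data. The members and gene lists were chosen with earlier results of these data known. The rule for named genes took all members and the called genes of each pathway list (at most 6 a list and comparison, by p). Where none was called it took the 2 smallest p-values, given here for some lists only. It also took the 3 genes most correlated with each member, given here for Il6, Cxcl1, Il1b and Tnf only. Marker genes, Cebpb and Lrg1 were named after their values were seen. The averaged comparison weights both blockers equally. Alternatives covered the dim filter, spots, normalization, moderation, array weights, compared arrays only, a replicate block, a muscle covariate and leaving out each array. Same-numbered bleomycin arrays correlated at -0.69 to 0.352 in their deviations. With 1 pair of arrays for each number, this cannot decide whether the numbers pair samples. The labels do not say, and the main fit used no pairing.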

Additional observations from a re-analysis of the deposited data

Results flagged for a closer look

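Osm in bleomycin control blocker array 5 was 6.37, far below the other 5 arrays of its group, which lay between 6.60 and 6.64. Its gap to the nearest array was 0.853 of the group's range, above the critical value of 0.625 for 6 samples. It was the only such value among 20 groups of 6 arrays examined for the 10 genes, and chance flags about 1 in 20. The same array had the highest Il6 (8.79), Cxcl1 (7.97) and Il11 (8.20) levels.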

How the results depend on the processing

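The counts below are of the 10 genes called. With bleomycin under the control blocker, 1 gene was called, and 0 were with array weights, with only the compared arrays, with the replicate block, with the skeletal muscle covariate, without the 3 bleomycin arrays low in muscle markers, or without the samples of RNA integrity number 10. The 50th percentile filter gave 2, and leaving out single arrays 0 to 3. Il6 stayed at 1.19 to 1.45 in these settings other than single arrays left out. With bleomycin under the CAV1 blocker, 0 became 2 with array weights, which gave Il6 an adjusted p of 0.0486, and leaving out single arrays gave 0. In the averaged comparison, 2 became 0 with array weights or the replicate block and 1 with the muscle covariate or without those 3 arrays, with 0 to 4 over single arrays left out. Between the blockers after bleomycin, 1 became 0 with only the compared arrays (Il6 adjusted p = 0.0601), the replicate block (0.105), the muscle covariate (0.0588) or either of the sets of arrays left out, with 0 to 1 over single arrays. The Il6 difference was -0.91 in the first 3. After PBS and for the interaction, 0 became 0 to 1 over single arrays left out, Cxcl5 in each case. No called value changed sign. The alternatives that left out those 3 arrays or the samples of RNA integrity number 10 were chosen after seeing the data. Genes called in the whole table also moved, for example 489 with bleomycin under the control blocker to 92 to 4074 over single arrays left out. The cause was not tested. Where 1 array was left in a PBS group, its spread was taken from the other groups. With no detection marks, dim genes such as Cxcl2 set a limit that cannot be stated in numbers.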
